A study of Rattus norvegicus with 24 samples.

Results

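Transcripts of the epidermal growth factor (EGF) family were measured by RNA sequencing in kidneys (left side) from 24 PKD/Mhm (Cy/+) rats, all male. The 10 genes followed were chosen by name, with earlier results of these data known, and comprised 6 ligands (Egf, Tgfa, Hbegf, Areg, Btc and Nrg1) and 4 receptors (Egfr, Erbb2, Erbb3 and Erbb4). All 10 were found among the 17334 genes measured, and all 10 passed the filter on low counts that left 12778 genes for testing. Each animal was heterozygous for the Cy allele, a missense change in Anks6 that causes cystic kidneys, and no kidney of a non-cystic rat was analysed here. Animals were 8 months old, in 4 groups of 6. The Ctrl group was left untreated. The CoCM group was given, once a month over 6 months, conditioned medium from human skin-derived ABCB5+ stromal cells that had shared their culture with macrophages made from THP-1 cells, a human monocytic line, after activation with IFN-γ and LPS. The medium was given intraperitoneally by the series description and intravenously by the study's methods. The other groups received the human ABCB5+ cells themselves on the same schedule, by intraperitoneal (i.p. ABCB5+) or intravenous (i.v. ABCB5+) injection. The labels number the Ctrl animals between 1 and 24 and all treated ones between 26 and 43, so the order of the animals cannot be told apart from treatment in a comparison with Ctrl.

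The EGF family works through 4 receptor tyrosine kinases. EGF, transforming growth factor alpha (Tgfa) and amphiregulin (Areg) bind the EGF receptor (Egfr), heparin-binding EGF-like growth factor (Hbegf) and betacellulin (Btc) bind Egfr and Erbb4, and neuregulin 1 (Nrg1) binds Erbb3 and Erbb4. Erbb2 has no known soluble ligand and acts as a partner of the other receptors. The ligands are made as membrane-bound precursors and are released by sheddases such as Adam17 and Adam10. In the healthy kidney Egf is made by the thick ascending limb and the distal convoluted tubule, where it takes part in magnesium transport, whereas Hbegf and Tgfa are known as ligands of the injured tubule. Cyst epithelium of several models carries an active EGF receptor.

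Promoter sequence was available from RefSeq (assembly GRCr8) for 8 of the 10 genes. Those of Egf, the most abundant transcript of the family, of Areg, the ligand with a cyclic AMP response element, and of Egfr are shown, since cyclic AMP signalling is an established driver of cyst growth and Egfr is the shared receptor of 5 of the ligands. The sequence ran to the transcription start listed by RefSeq, except for Egf, where the last 34 bases lay inside another annotated form of the gene and were left off. Searched on both strands, the motifs were TATAAA (the TATA box), TGACGTCA (the cyclic AMP response element), GGGCGG (the core of a GC box) and TTTAAA, the last added after the Egf sequence had been read, and no match overlapped another. Matches are in capitals.
Egf, chr2:220976332-220976547, minus strand: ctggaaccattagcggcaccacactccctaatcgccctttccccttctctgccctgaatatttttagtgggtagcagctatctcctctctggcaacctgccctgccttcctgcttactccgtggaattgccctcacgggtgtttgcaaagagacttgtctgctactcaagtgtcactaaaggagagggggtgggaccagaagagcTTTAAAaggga
Areg, chr14:17265642-17265891, minus strand: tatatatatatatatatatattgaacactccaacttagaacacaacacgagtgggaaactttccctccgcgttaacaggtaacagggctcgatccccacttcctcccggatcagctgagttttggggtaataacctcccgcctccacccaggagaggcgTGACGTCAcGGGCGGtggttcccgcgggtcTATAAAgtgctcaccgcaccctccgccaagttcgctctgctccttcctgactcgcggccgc
Egfr, chr14:95378376-95378625, plus strand: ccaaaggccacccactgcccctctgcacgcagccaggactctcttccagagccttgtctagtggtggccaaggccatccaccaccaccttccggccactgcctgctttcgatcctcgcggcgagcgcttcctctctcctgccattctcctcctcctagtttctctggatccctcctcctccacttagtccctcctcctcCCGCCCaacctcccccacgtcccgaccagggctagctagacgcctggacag

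In the 250 bases before its start, Areg held TGACGTCA at 91 bases, GGGCGG at 82 bases and TATAAA at 61 bases upstream. The response element was found in 1.59% of all 33469 rat promoters of this length and TATAAA in 12.9%. Egf held neither of these motifs and no GGGCGG, but TTTAAA at 45 bases upstream, a run present in 12.3% of promoters. Egfr held GGGCGG on the other strand at 51 bases upstream, a motif present in 30.5% of promoters. The G and C content of the 250 bases was 51.6% for Egf and 54.4% for Areg, against 62.8% for Btc, 63.6% for Egfr, 67.6% for Hbegf, 69.2% for Erbb2, 73.6% for Erbb4 and 74.4% for Tgfa. Of these bases, 170 for Tgfa, 110 for Erbb2, 34 for Egf and 27 for Erbb4 lay inside an annotated form of the gene. A match of letters is a description and says nothing of whether a factor was bound.

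Total counts per library were between 9304630 and 14125457. CPM is a count divided by the scaled size of its library. In the smallest library 3 counts correspond to 0.322 CPM by its unscaled total, and to a higher CPM by its scaled size. Kidney tissue was recognised by its markers in all 24 libraries, with Umod (uromodulin, of the thick ascending limb) from 1067 to 9327 CPM and Slc34a1 (the phosphate transporter of the proximal tubule) from 673 to 6610 CPM. Pvalb, used as a marker of the distal convoluted tubule, was at or near 0 throughout (highest 0.0883 CPM). Before any result, 4 libraries stood apart on the first principal component of all genes, namely CoCM 39, i.p. ABCB5+ 38, i.v. ABCB5+ 36 and i.v. ABCB5+ 37. Their scores were 97.4, 80.8, 87.1 and 86.3, whereas the other 20 were from -53 to 11.5. No Ctrl animal was among them. In these 4 kidneys the summed CPM of the 6 injured-tubule markers was from 517 to 909, against 7035 to 13903 in the other 20, and the sums of the 4 fibroblast markers (164 to 527 against 719 to 3101) and of the 4 macrophage markers (40.1 to 123 against 191 to 534) did not overlap either. Spp1 carried most of the injured-tubule sum, at 370 to 670 CPM in the 4 and 6596 to 13004 in the other 20. Havcr1, Lcn2 and Vcam1 were also below the range of the 20 in all 4. Sox9 overlapped (73.8 to 218 against 129 to 262 CPM), and Krt20 did not exceed 1.56 CPM in any kidney. The share of these cell types in the values of the EGF family was not tested. The log2 folds of the members and the counts of pathway genes are therefore given with and without these 4 libraries, and other values are from all 24 libraries unless stated.

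The levels of the 10 transcripts were first compared in TPM, which is scaled to transcript length. Egf exceeded every other member in each of the 24 kidneys, with a lowest value of 139, a median of 385 and a highest of 1518 TPM. It made up 77.4% to 98.5% (median 90.3%) of the summed TPM of the 6 ligands and ranked between 83 and 1084 (median 372) among all genes. The summed TPM of the 5 other ligands was from 22.4 to 51.4 (median 43.5) and that of the 4 receptors from 32.4 to 65.9 (median 45.9).

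After Egf, the order by median TPM was Erbb2 (23.7), Erbb3 (17.1), Nrg1 (16.9), Hbegf (11.6), Btc (7.1), Tgfa (3.86), Egfr (2.64), Areg (2.29) and Erbb4 (1.34). Only the step from Egf to Erbb2 separated the ranges. Erbb3 was above Nrg1 in 10 of 24 animals, and Tgfa above Egfr, and Egfr above Areg, in 15 of 24 each, so these neighbours did not differ beyond their spread. Erbb2 was above Erbb3 in 21 of 24 animals, Nrg1 above Hbegf and Hbegf above Btc in 20 each, Btc above Tgfa in 21 and Areg above Erbb4 in 20. Among the receptors Erbb2, the partner without a ligand of its own, was thus the most abundant transcript and Erbb4 the least.

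**Figure D1:**
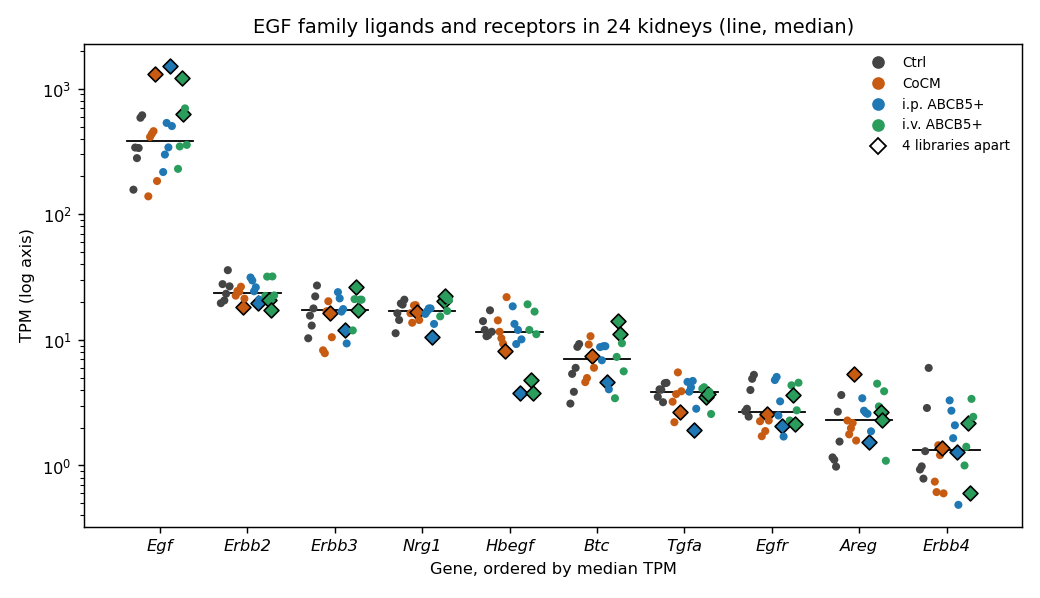
TPM (log axis) of the 10 members in each of 24 kidneys, ordered by median; the black line is the median of 24, colours are groups and diamonds are the 4 libraries apart. Egf lies between 139 and 1518 TPM, above the range of every other member, and the 4 libraries apart are the lowest for Hbegf, at 3.78 to 8.23 TPM against 9.27 or more.

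Between the lowest and the highest kidney, Egf varied 10.9-fold in TPM, which only Erbb4 exceeded with 12.3-fold. In Ctrl, Egf was at 586 CPM at the lowest, with a median of 1099 and a highest value of 2034. In CoCM it was from 520 to 5155 (median 1492), in i.p. ABCB5+ from 654 to 6242 (median 1530) and in i.v. ABCB5+ from 804 to 4760 (median 1693). The groups overlapped, and the highest values of the treated groups all came from the libraries apart: 6242 CPM in i.p. ABCB5+ 38, 5155 CPM in CoCM 39, and 4760 and 2785 CPM in i.v. ABCB5+ 36 and 37. All 4 were above the range of the other 20 animals, which was from 520 to 2202 CPM. Without them the treated groups reached 1574, 1885 and 2202 CPM and their means were 1145 ± 519 (SD, n = 5), 1307 ± 546 (SD, n = 5) and 1318 ± 611 (SD, n = 4), against 1261 ± 534 (SD, n = 6) in Ctrl. In whole-kidney RNA, fewer cells of a type and less RNA per cell cannot be told apart. The summed thick ascending limb markers were also high in the 4 kidneys, at 8743 to 12080 CPM against 1840 to 8768 in the other 20. Umod was above the range of the 20 in all 4, Kcnj1 in 2, and Slc12a1 and Cldn16 in 1 each. The sum of the 5 proximal tubule markers, a segment not known for making Egf, separated the 4 kidneys fully, at 6503 to 11097 CPM against 1572 to 5806. Of these markers, Slc34a1 and Slc22a6 were above the range of the 20 in all 4, Lrp2 in 2, Cubn in 1 and Slc5a2 in 0. The medians of the distal convoluted tubule, intercalated cell and podocyte sums were higher in the 4 as well (4549, 1855 and 976 CPM against 2169, 1000 and 589), with ranges that overlapped. The part of these cell types in the level of Egf was not tested.

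Hbegf, which binds heparin and is known to be induced in injured tubules, took the opposite position. Its 20 animals of the main cluster were between 9.72 and 23.2 CPM, whereas i.p. ABCB5+ 38 had 4.72, i.v. ABCB5+ 37 had 5.11 and i.v. ABCB5+ 36 had 5.7 CPM. The remaining library apart, CoCM 39, had 9.79 CPM and lay inside the range of the others, although in TPM all 4 (3.78 to 8.23) were below the other 20 (9.27 to 21.9). The highest values were 23.2 CPM in CoCM 40 and 20.4 CPM in i.v. ABCB5+ 28. The groups overlapped, with medians of 11.7 CPM in both Ctrl and CoCM, 11.3 CPM in i.v. ABCB5+ and 12.2 CPM in i.p. ABCB5+. In the same kidneys Spp1 (osteopontin, made by injured tubules) was from 370 to 670 CPM in the 4 libraries apart and from 6596 to 13004 CPM in the other 20.

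Areg was a low-count transcript, with 10 to 48 counts per library, so that counting error is a large part of each value. It was from 0.73 to 2.54 CPM in Ctrl (median 0.943), from 1.17 to 4.44 in CoCM (median 1.54), from 1.33 to 2.18 in i.p. ABCB5+ (median 1.86) and from 0.763 to 3.32 CPM in i.v. ABCB5+ (median 2.16). Ctrl held 4 animals under 1 CPM, and only i.v. ABCB5+ 43 among the treated animals was as low. All 6 i.p. ABCB5+ animals lay above the Ctrl mean of 1.3 CPM, but Ctrl 24 (2.54 CPM) and Ctrl 22 (1.92 CPM) were within the range of the treated animals. CoCM 39 gave the highest value of all, 4.44 CPM.

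Btc, also low with 14 to 53 counts, was from 1.05 to 2.78 CPM in Ctrl (median 1.69). It was from 1.58 to 3.33 in CoCM (median 2.26), from 1.38 to 2.88 in i.p. ABCB5+ (median 2.17) and from 1.11 to 5.03 CPM in i.v. ABCB5+ (median 2.38). Its highest values, 5.03 and 4.37 CPM, belonged to i.v. ABCB5+ 36 and 37, both libraries apart, whereas i.p. ABCB5+ 38 had 1.7 CPM. The libraries apart thus did not share a level of Btc.

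Nrg1 and Tgfa varied 2.12-fold and 2.87-fold in TPM. Nrg1 was from 19.6 to 45.3 CPM over the 24 animals, and i.v. ABCB5+ 37 (45.3) and i.p. ABCB5+ 38 (19.6), both libraries apart, formed its extremes. Its medians were 26.2 CPM in Ctrl and 25.9 CPM in i.p. ABCB5+, and 30.8 CPM in CoCM and 30.4 CPM in i.v. ABCB5+. Tgfa was from 6.93 to 17.2 CPM, with medians of 12.2 CPM in both Ctrl and i.v. ABCB5+, 11.5 CPM in CoCM and 11.9 CPM in i.p. ABCB5+, and the 4 libraries apart fell inside the range of the other 20.

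Among the receptors, Egfr was from 7.79 to 15.7 CPM in Ctrl (median 10.6) and from 5.26 to 9.1 CPM in CoCM (median 7.34). It was from 5.72 to 14.3 in i.p. ABCB5+ (median 9.04) and from 7.12 to 13.6 CPM in i.v. ABCB5+ (median 10.3). All 6 CoCM animals lay below the Ctrl mean of 10.9 CPM, yet the ranges overlapped, since Ctrl 18 (7.79), Ctrl 12 (7.9) and Ctrl 1 (9.03) were no higher than the highest CoCM animal. The other 3 Ctrl animals, 22, 23 and 24, had 12.2, 13.1 and 15.7 CPM.

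Erbb4, a receptor for neuregulins, Hbegf and Btc, was the scarcest and the most variable receptor, with 16 to 223 counts. It was from 2.42 to 17.2 CPM in Ctrl (median 3.42) and from 1.82 to 4.67 CPM in CoCM (median 3). It was from 1.58 to 8.63 in i.p. ABCB5+ (median 5.71) and from 2.32 to 9.31 CPM in i.v. ABCB5+ (median 5.42). The highest value came from Ctrl 24, at 17.2 CPM, when the next Ctrl animal, 23, had 7.46. The Ctrl mean of 6.1 CPM rested on that library, and all 6 CoCM animals lay below it.

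Erbb3, the kinase-impaired partner that carries neuregulin signals, was from 34.9 to 81.7 CPM in Ctrl (median 49.7) and from 24.5 to 63.4 in CoCM (median 44.4). It was from 32 to 65.7 in i.p. ABCB5+ (median 55) and from 37.9 to 93.3 CPM in i.v. ABCB5+ (median 61.7). The groups overlapped, and the highest value was that of i.v. ABCB5+ 36, a library apart. Erbb2 varied least of all 10 members, 2.09-fold in TPM, and lay between 73.4 and 110 CPM, with medians of 84.9 CPM in Ctrl, 82 CPM in i.v. ABCB5+, 86.2 CPM in CoCM and 91 CPM in i.p. ABCB5+. All 4 libraries apart were below the median of the other 20 for Erbb2.

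**Figure D2:**
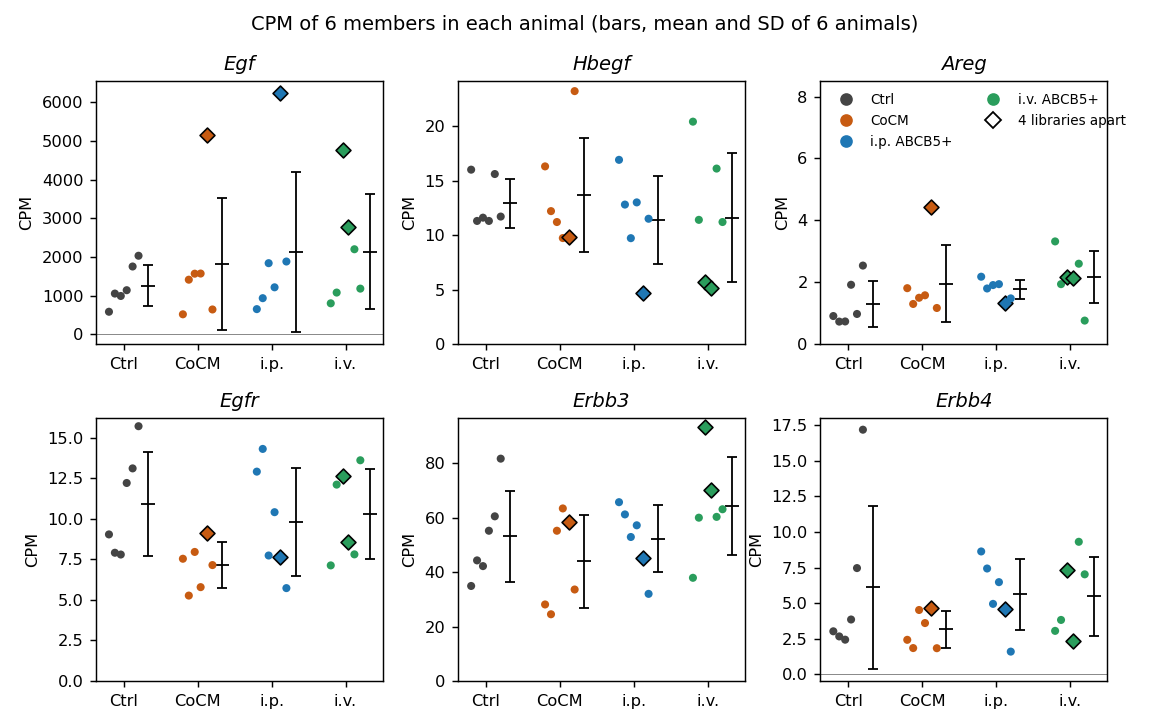
CPM of Egf, Hbegf, Areg, Egfr, Erbb3 and Erbb4 in each animal by group (i.p. and i.v., the cell routes); bars are the mean and SD of 6 animals and diamonds the 4 libraries apart. For Egf the diamonds, at 2785 to 6242 CPM, are above all other animals, and for Egfr all CoCM animals are below the Ctrl mean of 10.9 CPM.

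The groups were then compared in a single edgeR quasi-likelihood fit over 24 libraries with Benjamini-Hochberg adjustment over the 12778 genes. With CoCM against Ctrl, 0 of the 10 members passed an adjusted p of 0.05, when 1 gene of all (0.00783%) did, and DESeq2 also called 0 of the 10 in this and in each other comparison. At an unadjusted p under 0.05, 1 member passed, against 11.9% of all genes, 5.96% being lower in CoCM. That member was Egfr, with a log2 fold of -0.62 (SE 0.23, adjusted p = 0.353, edgeR). Erbb4 followed with -0.96 (SE 0.48, adjusted p = 0.429, edgeR) and Areg with 0.57 (SE 0.37, adjusted p = 0.504, edgeR). The exact two-sided permutation test over the 12 animals, which can reach 0.00216, gave p = 0.0238 for Egfr, 0.247 for Erbb4 and 0.201 for Areg. Egf had a log2 fold of 0.52 (SE 0.57, adjusted p = 0.663, edgeR, exact p = 0.714). The median log2 fold of the 10 was 0.02, against 0.009 over all genes.

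Without the 4 libraries apart, the log2 fold in CoCM was -0.71 for Egfr, -1.13 for Erbb4, 0.16 for Areg and -0.15 for Egf, so that the direction of Egf turned. At an unadjusted p under 0.05, 2 members (Egfr and Erbb4) then passed, against 16.9% of all genes. Leaving out CoCM 39 alone gave -0.14 for Egf and 0.17 for Areg, and leaving out Ctrl 24 alone gave -0.33 for Erbb4. Still, 0 of the 10 passed.

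The CPM of Egfr, Erbb3 and Erbb4 was set beside a feature of the libraries. These transcripts are long, at the 86.5, 87.1 and 85.2 percentile of relative length among tested genes, as are those of Tgfa (87.1), Egf (90.1) and Erbb2 (90.7). The libraries differed in the slope of log2 CPM on transcript length. All 6 CoCM libraries had a slope below 0 (-0.101 to -0.022 per doubling of length), whereas Ctrl ran from -0.058 to 0.106, i.p. ABCB5+ from -0.091 to 0.1 and i.v. ABCB5+ from -0.07 to 0.075. The Ctrl animals with high receptor levels, 22, 23 and 24, had slopes of 0.019, 0.106 and 0.087, and Ctrl 1 and 18 had -0.039 and -0.058. Ctrl 12 did not follow this order, since its slope was 0.052 with 7.9 CPM of Egfr and 2.65 CPM of Erbb4. With the slope as a covariate, chosen after seeing the data, the log2 fold in CoCM was -0.25 for Egfr (SE 0.19, adjusted p = 0.999, edgeR), 0.04 for Erbb4 and 0.05 for Erbb3, the last -0.28 without the covariate. The other 3 long members moved less, Tgfa being -0.06 in both fits, Egf 0.45 in place of 0.52 and Erbb2 0.09 in place of -0.04. At an unadjusted p under 0.05 this fit passed 5.82% of all genes, and 0 members, with CoCM against Ctrl. With i.v. ABCB5+ against Ctrl it passed Btc (log2 fold 0.71, unadjusted p = 0.0416, adjusted p = 0.628, edgeR), when 694 of 12778 genes passed. Slope and treatment were partly aligned in CoCM, so their shares cannot be told apart there.

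**Figure D3:**
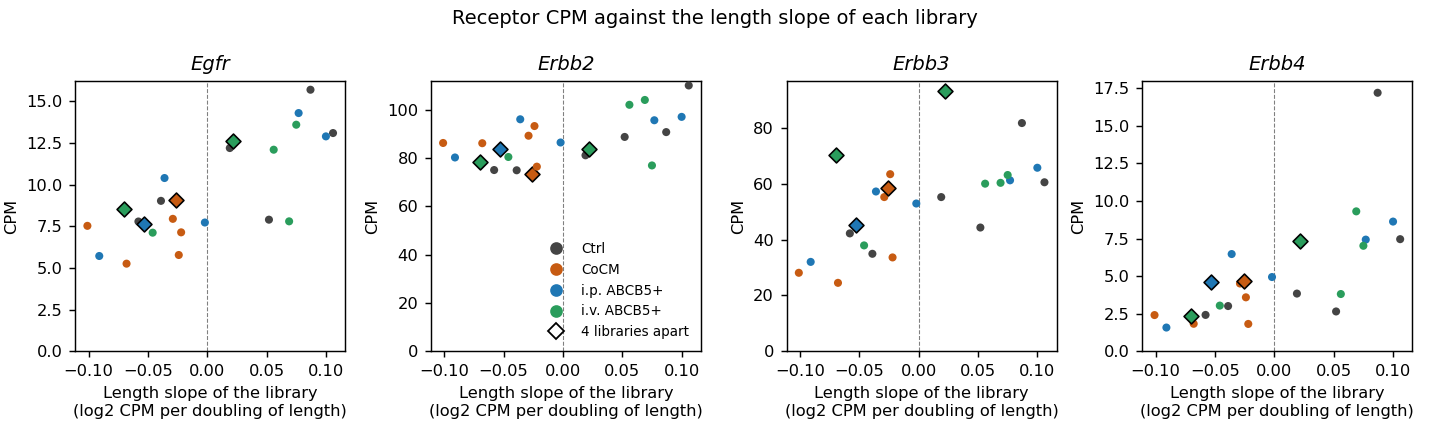
CPM of the 4 receptors in 24 kidneys against the slope of log2 CPM on transcript length of the same library; colours are groups and diamonds the 4 libraries apart. All 6 CoCM libraries lie left of 0, and the Ctrl animal with the highest Erbb4 (17.2 CPM) has a slope of 0.087.

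With i.p. ABCB5+ against Ctrl, 0 of the 10 members passed (0% of all genes), and 0 had an unadjusted p under 0.05, against 1.77% of all genes. Egf had a log2 fold of 0.76 (SE 0.57, adjusted p = 0.978, edgeR, exact p = 0.435), Areg 0.45 (SE 0.37, exact p = 0.0887) and Btc 0.28 (SE 0.33, exact p = 0.297), both with the same adjusted p. The log2 fold of Egf was 0.05 when i.p. ABCB5+ 38 was left out. Leaving out each library in turn gave 0.33 to 0.75 for Areg and 0.17 to 0.44 for Btc. Without the 4 libraries apart, Egf was 0.05, Areg 0.53 and Btc 0.35. The median log2 fold of the 10 was -0.01, against 0.004 over all genes.

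With i.v. ABCB5+ against Ctrl, 0 of the 10 passed (0% of all genes), and 0 had an unadjusted p under 0.05, against 5.78% of all genes. The 3 members with the smallest p were ligands, whereas the ligand Tgfa had the largest (log2 fold -0.02, SE 0.19), and no test compared ligands with receptors. Areg had a log2 fold of 0.73 (SE 0.37, adjusted p = 0.673, edgeR, exact p = 0.117), Btc 0.64 (SE 0.33, exact p = 0.214) and Nrg1 0.26 (SE 0.15, exact p = 0.165), with the same adjusted p. Egf had 0.76 (SE 0.57, adjusted p = 0.691, edgeR, exact p = 0.229). Without the 4 libraries apart, Egf was 0.05, Btc 0.06 and Nrg1 0.06, and Areg was 0.72. Leaving out i.v. ABCB5+ 36 alone gave 0.35 for Egf. The median log2 fold of the 10 was 0.14, against 0.013 over all genes.

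With i.p. against i.v. ABCB5+, 0 of the 10 passed (0% of all genes), and 0 had an unadjusted p under 0.05, against 2.14% of all genes. Nrg1 had a log2 fold of -0.27 (SE 0.15, exact p = 0.158), Erbb3 -0.29 (SE 0.25, exact p = 0.247) and Btc -0.35 (SE 0.33, exact p = 0.539), all with an adjusted p of 1 (edgeR). Egf was 0.00 (-0.00 ± 0.57, SE, exact p = 0.803). With the 4 libraries apart left out, Nrg1 was 0.00, Erbb3 -0.03, Btc 0.29 and Egf -0.01. An F-test over the 4 groups passed 0 members (0% of all genes, and 4.71% at an unadjusted p under 0.05), with the smallest p for Egfr (0.0714, adjusted p = 0.817, edgeR). The CPM ranges of the groups overlapped for all 10 members in all 4 comparisons, when ranges were separate for 1.38% of all genes with CoCM against Ctrl, 0.047% with i.p. and 0.11% with i.v. ABCB5+ against Ctrl, and 0.0626% between both routes. All 3 comparisons with Ctrl share the same 6 Ctrl animals.

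**Figure D4:**
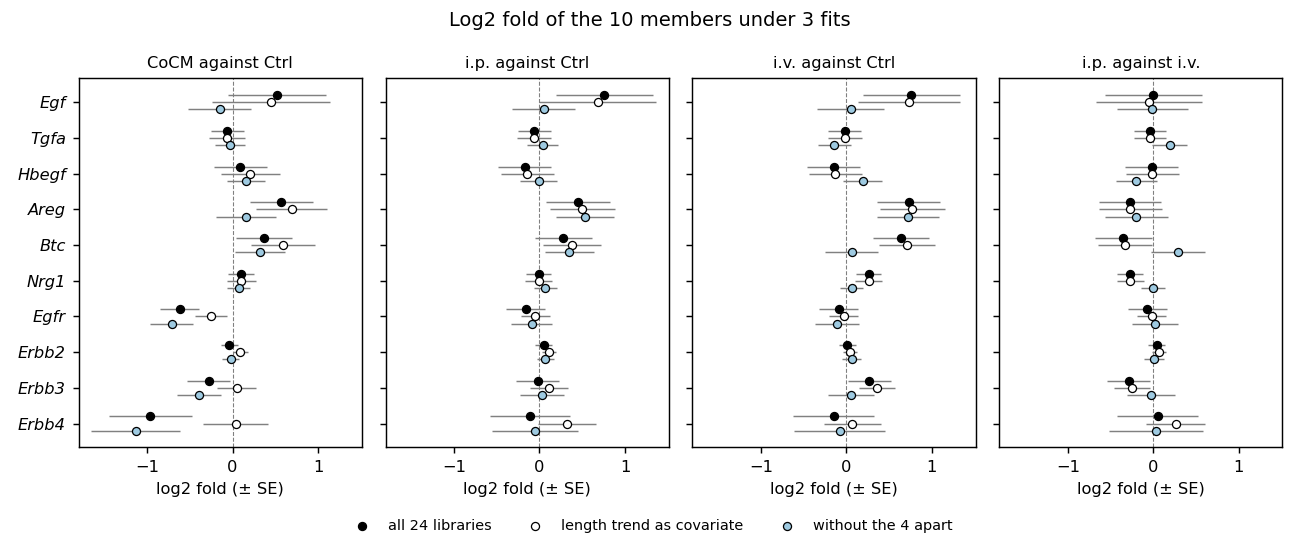
Log2 fold (± SE, edgeR) of the 10 members in 4 comparisons, from all 24 libraries (black), with the length slope as a covariate (white) and without the 4 libraries apart (blue). In CoCM, Erbb4 moves from -0.96 to 0.04 with the covariate, and in both cell groups Egf moves from 0.76 to 0.05 without the libraries apart.

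Around the ligands and receptors, 57 further genes of the pathway were listed, of which 52 were in the files and 49 passed the filter. With an adjusted p of 0.05, edgeR and DESeq2 each called 0 of the 49 in all 4 comparisons. At an unadjusted p under 0.05, 6 of 49 were lower and 0 higher in CoCM than in Ctrl, where 5.96% of all genes were lower, and the median log2 fold of the 49 was -0.14. The count was 9 of 49 without the 4 libraries apart, against 9.69% of all genes. With the length slope as a covariate, 1 of 49 was lower, against 1.86% of all genes, and the median was -0.02. The count was 0 of 49 with i.p. ABCB5+ against Ctrl (median -0.05), against 1.77% of all genes in both directions together. It was also 0 without the 4 libraries, where 179 of 12884 genes passed. With i.v. ABCB5+ against Ctrl, 2 were higher and 1 lower (median 0.01), against 4.44% and 1.34% of all genes, and without the 4 libraries 1 was higher and 0 lower, against 0.753% and 0.481%. With i.p. against i.v. ABCB5+, 3 were lower (median -0.04), against 1.46% of all genes, and 1 without the 4 libraries, against 0.683%.

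Of the other ligands of the family, Ereg and Epgn (epiregulin and epigen) did not exceed 0.175 and 0.281 CPM in any kidney, below 3 counts in the smallest library. Nrg4 was from 0.142 to 2.47 CPM and did not pass the filter, and Nrg2 was from 0.455 to 3.79 CPM with a log2 fold in CoCM of -0.36. Its median was 2.68 CPM in Ctrl and 2.08 CPM in CoCM, or 2.72 CPM without CoCM 39. All 4 libraries apart were below the median of the other 20 for Nrg2.

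Of the 5 sheddases and cofactors tested, 3 were lower in CoCM at an unadjusted p under 0.05, 3 without the 4 libraries apart and 0 with the length slope as a covariate. The shares of all genes that were lower in these settings were 5.96%, 9.69% and 1.86%. Adam10, which cleaves the Egf and Btc precursors, was from 107 to 132 CPM in Ctrl (median 113) and from 74.9 to 105 in CoCM (median 90.4). It was the only 1 of the 49 pathway genes with separate ranges in CoCM against Ctrl, where 1.38% of all genes had them (log2 fold -0.36, SE 0.14, adjusted p = 0.363, edgeR, exact p = 0.00216, the smallest it can give). The log2 fold was again -0.36 without the 4 libraries apart and was -0.13 with the length slope as a covariate. Adam17, which cleaves Tgfa, Hbegf and Areg, spanned 72.9 to 84.2 CPM in Ctrl and 56.8 to 78.5 CPM in CoCM, and 61.7 to 79.6 CPM in the i.p. and 53.8 to 81 CPM in the i.v. cell group. Its log2 fold was -0.24 in CoCM (adjusted p = 0.374, edgeR, exact p = 0.00866), -0.18 in i.p. ABCB5+ (adjusted p = 0.978, edgeR, exact p = 0.0433) and -0.20 in i.v. ABCB5+ (adjusted p = 0.673, edgeR, exact p = 0.0498). Without the 4 libraries apart, all of which were below the range of the others for Adam17 and for its cofactor Rhbdf2, these became -0.20, -0.13 and -0.08. With the covariate they were -0.15, -0.15 and -0.20. Ptpn11, the phosphatase SHP2 that carries the signal from receptor to the RAS cascade, had a log2 fold in CoCM of -0.21 (SE 0.073, adjusted p = 0.327, edgeR, exact p = 0.00649), which was -0.23 without the 4 libraries and -0.10 with the covariate. With i.p. ABCB5+ against Ctrl, Spry1, an inhibitor of that cascade, had -0.40 (adjusted p = 0.978, edgeR, exact p = 0.0649) and the adaptor Grb2 -0.11 (exact p = 0.104), and these were -0.32 and -0.10 without the 4 libraries.

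Of the 10 negative regulators tested, 2 were higher in i.v. ABCB5+ than in Ctrl and 3 were lower by the i.p. than by the i.v. route at an unadjusted p under 0.05, against 4.44% and 1.46% of all genes, and 0 passed the adjustment. These counts were 1 and 1 without the 4 libraries apart, Errfi1 in both, against 0.753% and 0.683% of all genes. Errfi1, whose protein binds the EGF receptor and blocks its kinase, was from 155 to 688 CPM in Ctrl (median 336), from 152 to 685 in CoCM (median 395), from 178 to 415 in i.p. ABCB5+ (median 250) and from 331 to 1129 CPM in i.v. ABCB5+ (median 751). Its log2 fold was -1.32 (SE 0.37) for i.p. against i.v. ABCB5+ (unadjusted p = 0.00167, adjusted p = 1, edgeR, exact p = 0.00866) and 1.01 (SE 0.37) for i.v. ABCB5+ against Ctrl (adjusted p = 0.673, edgeR, exact p = 0.0325). These became -1.31 and 0.86 without the 4 libraries apart. Dusp5, an ERK phosphatase, had 0.79 with i.v. ABCB5+ against Ctrl (SE 0.25, adjusted p = 0.673, edgeR, exact p = 0.0152) and -0.66 with i.p. against i.v. ABCB5+ (SE 0.25, adjusted p = 1, edgeR, exact p = 0.0563), and these were 0.38 and -0.15 without the 4 libraries. Spry4, another inhibitor of the cascade, had -0.36 with i.p. against i.v. ABCB5+ (SE 0.13, adjusted p = 1, edgeR, exact p = 0.026), which was -0.25 without the 4 libraries. Ranges overlapped for all 3 genes.

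Within the 20 animals of the main cluster, Egf was set beside the other 9 members and 4 marker genes, which made 13 relations. Pearson's r of log2 CPM was 0.65 with Umod (permutation p = 0.00221, adjusted p = 0.0131, Spearman's rho 0.68, permutation p = 0.00165) and 0.64 with Slc12a3, the thiazide-sensitive transporter of the distal convoluted tubule (permutation p = 0.00213, adjusted p = 0.0131, rho 0.61, permutation p = 0.00474). After the 2 animals farthest from the median of Egf were left out, r was 0.76 and 0.51. With Spp1, r was -0.63 (permutation p = 0.00302, adjusted p = 0.0131, rho -0.54, permutation p = 0.0157, adjusted p = 0.051), and -0.43 without those 2 animals. With Havcr1 (Kim-1, a marker of proximal tubule injury) r was -0.43 (permutation p = 0.0598, adjusted p = 0.123, rho -0.42, permutation p = 0.0686), and -0.20 without them.

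Among the family, Hbegf was related to Egf with r = -0.57 (permutation p = 0.00993, adjusted p = 0.0323, rho -0.48, permutation p = 0.0332, adjusted p = 0.0863) and Btc with r = 0.54 (permutation p = 0.0144, adjusted p = 0.0374, rho 0.56, permutation p = 0.0124, adjusted p = 0.051). Without the 2 farthest animals, r was -0.52 and 0.43. On log2(TPM + 1), Hbegf (r = -0.42, adjusted p = 0.0911 from permutation) and Spp1 (r = -0.47, adjusted p = 0.0732 from permutation) no longer passed, whereas Btc did (r = 0.59, adjusted p = 0.0295 from permutation). By Spearman's rho on log2 CPM, 2 of the 13 relations passed, those with Umod and Slc12a3. The other 7 members had r between -0.04 (Egfr) and 0.41 (Erbb3), and none of the 7 passed the adjustment. With the group means removed, r was 0.69 for Umod, 0.65 for Slc12a3, -0.65 for Spp1, -0.58 for Hbegf and 0.61 for Btc. In the 6 Ctrl animals alone, Btc (r = 0.96) and Erbb3 (r = 0.95) followed Egf in the same order of animals (rho 1 each, exact permutation p = 0.00278, adjusted p = 0.0181), whereas Hbegf had r = -0.24 (exact permutation p = 0.508). Egf and Erbb3 are both long transcripts, whereas Btc is short (2.9 percentile of relative length). The part of the length slope in this order was not tested. The 4 libraries apart, left out of these values, lay at high Egf with high Umod, low Spp1 and, in 3 of 4, low Hbegf. They did not share a level of Btc.

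**Figure D5:**
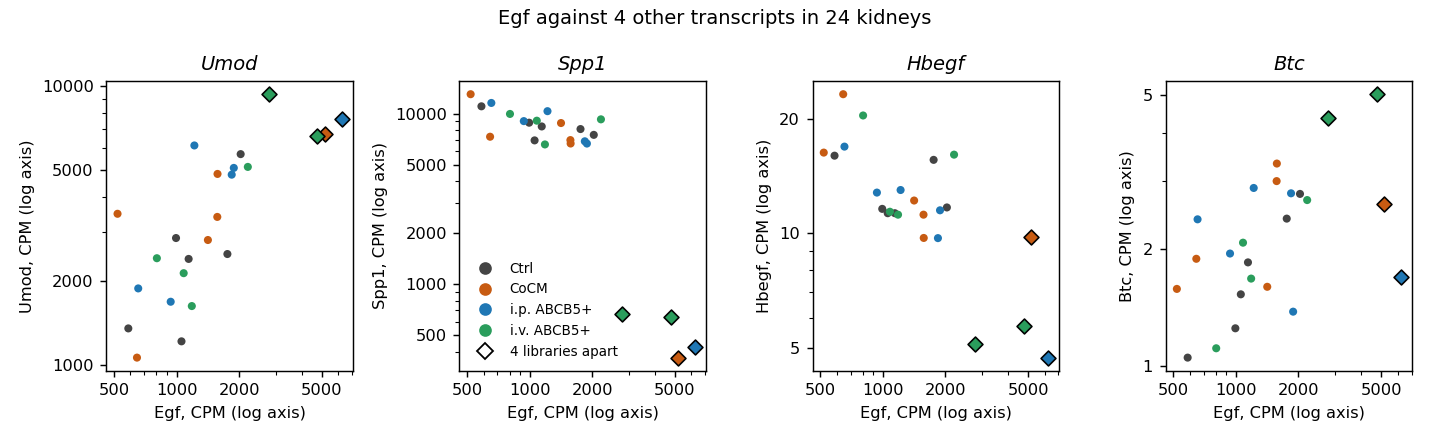
CPM of Umod, Spp1, Hbegf and Btc against CPM of Egf in each of 24 kidneys, all axes on a log scale; colours are groups and diamonds the 4 libraries apart. Spp1 is at 370 to 670 CPM in the diamonds and at 6596 or more in the other 20 animals.

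The genes most like Egf over the 24 animals, by Spearman's rho of log2 CPM among the genes tested, were Tmem116 (0.97), Isoc1 (0.95), Gfra1, a GDNF receptor (0.94), Slc25a16 (0.94) and Magix (0.94). Over the 20 animals of the main cluster these had 0.95, 0.92, 0.89, 0.90 and 0.89. The genes most like Nrg1 were Cubn, the endocytic receptor cubilin of the proximal tubule (0.85), Ppp2r1b (0.84), Chdh, a choline dehydrogenase (0.84), Rhobtb1 (0.84) and Vil1, villin of the brush border (0.83), with 0.84, 0.82, 0.76, 0.83 and 0.75 over the 20 animals. Those most like Hbegf were Rnd1 (0.90), F2rl1, a protease-activated receptor (0.88), Adra1d, an adrenergic receptor (0.87), Scarb1, a lipoprotein receptor (0.86) and Gprc5a (0.86), with 0.83, 0.80, 0.79, 0.79 and 0.78 over the 20. Ranked over the 20 animals instead, the list for Nrg1 changed completely. It then held Oplah (0.89), Dnajc11 (0.87), Tmem33 (0.87), Lonp1 (0.86) and Atp7b (0.86). In the same ranking Rpl7a (0.83) replaced Gprc5a for Hbegf, and the gene Cpm (0.89) replaced Magix for Egf. The animals shared libraries and depth across genes, and these values are a description without a test.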

How the data were processed

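Total RNA of whole left kidney was sequenced on a BGISEQ-500. Per animal, the authors deposited estimated counts (not normalized, not all whole) and TPM values (scaled by the authors to transcript length and library total) for 17334 genes. The submitters' processing notes name Trim Galore 0.6.4, kallisto 0.4.6 and the build rn6, while the methods name a human hg19 gene package and DESeq2. How the gene package bears on the counts is not given in the sources used here. Symbols and promoters came from RefSeq (GRCr8, another build than the files'), in which 17179 identifiers were found.

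Groups were taken from the sample labels. Estimated counts were rounded to whole numbers, filtered with filterByExpr (12778 genes kept), scaled by TMM and fitted with edgeR 4.0.16 (R 4.3.3, quasi-likelihood F-test, 4 group means, 24 libraries). The adjusted p threshold was 0.05. DESeq2 1.42.0 and limma 3.58.1 were alternatives, together with median-ratio size factors, no filter, fits of only the groups compared and leaving out libraries. CPM used TMM library sizes, with a prior count of 2 for log2 CPM, and the log2 TPM alternative a pseudocount of 1. Relative transcript length was taken from the ratio of counts to TPM. For single genes an exact permutation test (two-sided) was run beside the fit, and correlations with 100000 permutations (SciPy 1.17.1). Statistics were printed for the 3 members and the 3 pathway genes with the smallest p in each comparison, and for Egf always. The members and gene lists were chosen with earlier results of these data known. On simulated counts (CoCM against Ctrl, 12728 genes, 200 changed 4-fold) edgeR called 93% of the changed genes, and 2.62% of its calls were unchanged genes. The log2 folds of the members (-0.96 to 0.76) were smaller than this change, so the 93% does not give the power to call them. Total counts were 9304630 to 14125457, so that 3 counts are 0.322 CPM by the unscaled total of the smallest library. By the TMM size of that library, 3 counts are a higher CPM. The floor of 3 counts covers counting error only. The labels do not give separate batches. Replicates are separate animals, and libraries within a group differed by a chi-square of at least 10.3 per degree of freedom, so none was a repeat.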

Additional observations from a re-analysis of the deposited data

Results flagged for a closer look

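Each member was examined in each group of 6 for an animal far from the rest, which made 40 groups, of which chance gives about 1 in 20. A gap was found in 4. Egf was at 5155 CPM in CoCM 39, when the other 5 animals were between 520 and 1574, and at 6242 CPM in i.p. ABCB5+ 38, when the other 5 were between 654 and 1885. Areg was at 4.44 CPM in CoCM 39, against 1.17 to 1.81 in the other 5. Both animals are among the 4 libraries that stood apart over all genes. Erbb4 was at 17.2 CPM in Ctrl 24, against 2.42 to 7.46 in the other 5, and that library was not one of the 4. Its slope of log2 CPM on transcript length was 0.087. The part of these library features in the values was not tested.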

How the results depend on the processing

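No paired analysis was possible because no animal number occurs in more than 1 group. The number of members called stayed 0 in each comparison under all alternatives run, leaving out each library in turn included. Without the 4 libraries apart, the log2 fold of Egf in CoCM against Ctrl turned from 0.52 to -0.15, and between i.p. and i.v. ABCB5+ that of Nrg1 went from -0.27 to 0.00 and that of Btc from -0.35 to 0.29. With single libraries left out, Egf ranged from -0.14 to 0.72 in CoCM against Ctrl and from -0.69 to 0.39 between i.p. and i.v. ABCB5+, where its value of -0.00 became 0.17, 0.13, 0.03, 0.10 and 0.01 without i.p. ABCB5+ 29, 30, 31, 32 and 41, and 0.39 and 0.08 without i.v. ABCB5+ 36 and 37. With the length slope as a covariate, Erbb4 in CoCM went from -0.96 to 0.04. Over all genes, the 1 call with CoCM against Ctrl became 78 with DESeq2, 0 without the 4 libraries apart, with the covariate, on log2(TPM + 1) or with both groups fitted alone, and 0 to 31 with single libraries left out (31 without Ctrl 23). At an unadjusted p under 0.05, 761 genes were higher and 762 lower in CoCM, against 297 and 1020 on log2(TPM + 1). The cause of these changes was not tested. Of the 13 relations of Egf, 5 passed the adjustment by Pearson's r in the main cluster and with group means removed, 3 on log2(TPM + 1), where Hbegf and Spp1 were lost, and 2 in the 6 Ctrl animals alone. By Spearman's rho 2, 3, 3 and 2 passed in the same order. Pearson's r of Egf turned from -0.01 to 0.11 for Tgfa and from -0.04 to 0.12 for Egfr on log2(TPM + 1), and to 0.33 and 0.76 in the 6 Ctrl animals. With 10 to 53 counts per library, Areg and Btc are limited by counting error, and Ereg and Epgn could not be measured at this depth.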
